A study of Canis lupus familiaris with 6 samples.

Results

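The genes described here carry iron into the cell, store it, export it and sense it: TFRC, STEAP3, SLC11A2, FTL, FTH1, NCOA4, SLC40A1, IREB2, ACO1 and FBXL5. They were chosen by symbol. Of these 10 genes, 9 matched an entry of that name among 29822 annotated genes, and all 9 were among the 15397 genes with enough reads to test. FTH1 had no entry of that exact name, and the files hold 2 entries with a suffix, FTH1_1 and FTH1_2, which were added after their values were seen and are kept out of all counts. RNA came from CMM10, a malignant melanoma cell line of the dog, kept under hypoxia in 3 libraries and under normoxia in 3 libraries. No oxygen level and no duration are stated in the labels, and these do not say that the libraries of a condition were separate cultures, so the p-values measure only the spread between these libraries, which may be technical.

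Iron bound to transferrin enters the cell through the transferrin receptor, is reduced in the endosome by STEAP3 and leaves the endosome through SLC11A2. Iron that is not used is stored in ferritin, a shell of heavy (FTH1) and light (FTL) chains, from which NCOA4 releases it by taking ferritin to the lysosome, and SLC40A1 (ferroportin) exports it. The iron regulatory proteins ACO1 and IREB2 bind iron-responsive elements in messenger RNAs when iron is scarce. They protect the TFRC messenger from decay and hold back translation of ferritin and ferroportin. FBXL5, which itself binds iron and oxygen, marks IREB2 for degradation. Much of this regulation acts on translation and on protein stability, which RNA sequencing does not measure.

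The libraries held 23196647 to 28804337 gene reads, and 93.8% to 94.6% of these were uniquely mapped. The hypoxia marker CA9 was at 404 to 413 CPM in the hypoxia libraries and at 29.0 to 31.0 CPM in the normoxia libraries. CPM of gene reads were scaled to the library total multiplied by its TMM factor. These factors were 0.971 to 0.981 under hypoxia and 1.019 to 1.028 under normoxia, so CPM differ from values scaled to the library total alone. The mitochondrial share of gene reads was 3.27% ± 0.060 under hypoxia, against 4.56% ± 0.054 under normoxia (mean ± SD, n = 3 each, two-sided exact permutation p = 0.1, the smallest that 3 against 3 can give). Of 9 melanocyte markers, SOX10, MITF, DCT and PMEL were above 1 TPM (a level per exon length) in every library, TYR was listed at 0 TPM in all 6, and TYRP1 and TRPM1 stayed at or below 0.06 TPM. Macrophages are known for handling iron, and the summed level of 6 macrophage markers was 0.86 to 1.26 TPM under hypoxia and 0.53 to 1.37 TPM under normoxia. The erythroid marker GATA1 was listed at 0 TPM throughout, and the 5 erythroid markers measured summed to 18.2 to 20.5 TPM under hypoxia and 10.9 to 13.3 TPM under normoxia, most of it EPOR. Fibroblast markers summed to 2835 to 2928 TPM under hypoxia and 2172 to 2303 TPM under normoxia, nearly all of it COL1A2. Of the other fibroblast markers, COL1A1 was at 116 to 148 TPM, DCN at 1.36 to 3.27 TPM, and LUM and PDGFRB below 1 TPM. The keratinocyte markers KRT14 and TP63 summed to 854 to 1016 TPM under hypoxia and 191 to 197 TPM under normoxia, nearly all KRT14. Their part in the iron genes' changes was not tested. In RNA from a whole culture, fewer cells of a kind and less RNA per cell cannot be told apart.

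Under hypoxia 3 of the 9 measured iron genes rose, 3 fell and 3 did not pass the test. TFRC rose 2.10-fold, SLC40A1 1.50-fold and NCOA4 1.14-fold, whereas the falls of SLC11A2, ACO1 and FTL were 1.10-fold, 1.10-fold and 1.06-fold. Each change is given as log2(hypoxia/normoxia) ± SE and was tested with the quasi-likelihood method of edgeR across all genes, with adjustment after Benjamini and Hochberg at 0.05. At that threshold 49.0% of all genes tested were called, 24.5% higher and 24.4% lower, so 6 of 9 called is a share not far from that of genes at large. The values of the 2 conditions did not overlap in 7 of the 9 genes, against 55.3% of all genes tested. The median log2 change was 0.00 in the 9 genes and 0.00 in all genes tested. With library size as the only scaling, 38.8% of all calls were higher, against 50.1% with TMM factors, and 3 iron genes were then called higher and 4 lower.

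**Figure D1:**
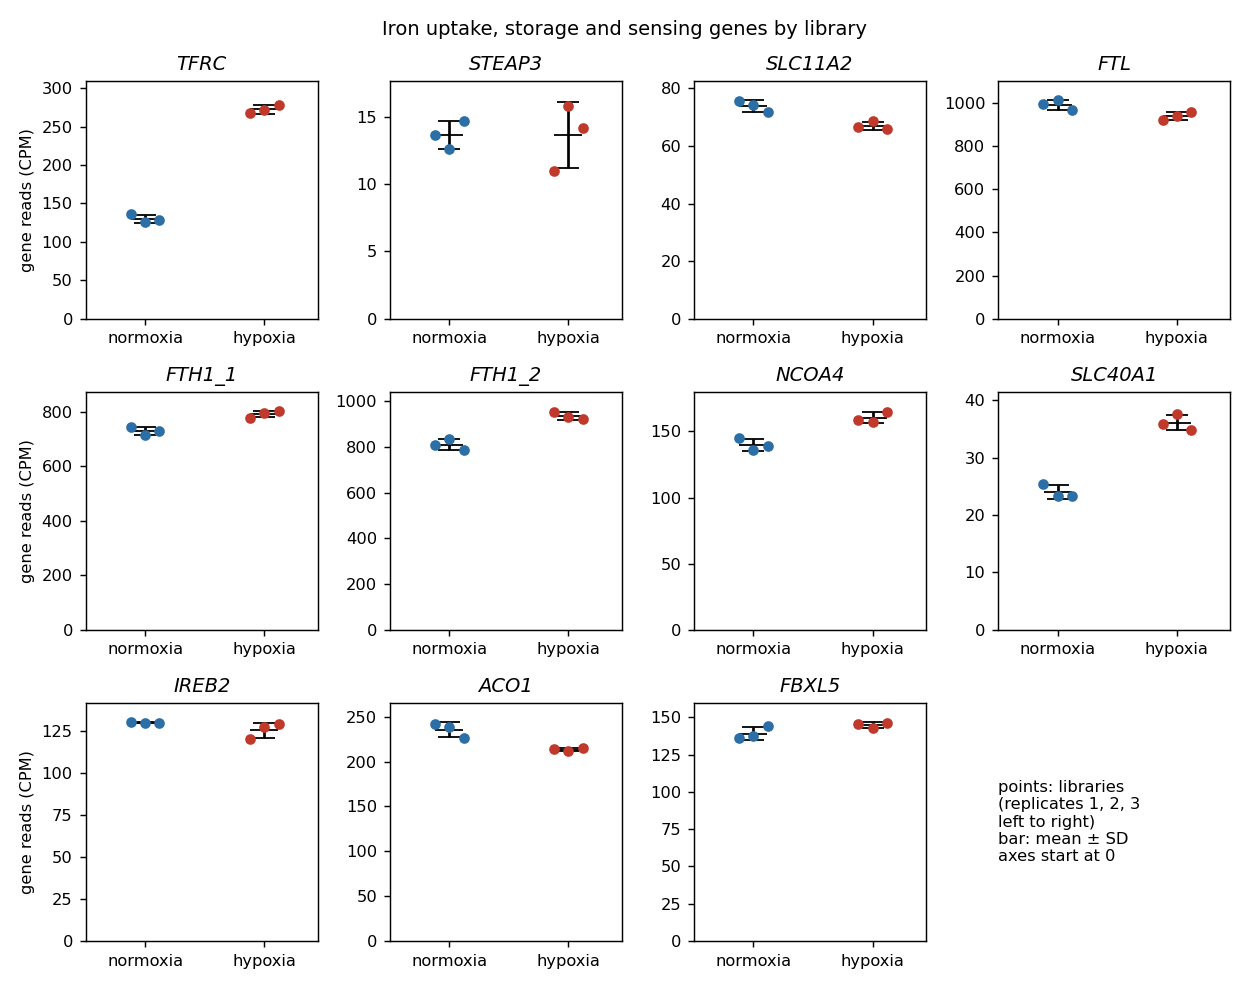
Gene reads in CPM (vertical axes, each starting at 0) for 9 iron genes and the 2 FTH1 entries in each normoxia (blue) and hypoxia (red) library, with mean and SD of 3 libraries in black. TFRC and SLC40A1 stand well apart between conditions, with 267 to 279 against 126 to 136 CPM and 34.9 to 37.6 against 23.3 to 25.4 CPM, while the other genes differ by little or overlap.

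Per exon length, ferritin light chain was far above the other 8 genes, at 2344 to 2616 TPM over the 6 libraries. NCOA4 (111.0 to 139 TPM) and TFRC (73.0 to 166 TPM) came next, and their ranges overlapped. IREB2 (53.6 to 61.9 TPM) and ACO1 (47.0 to 55.0 TPM) also overlapped, followed without overlap by FBXL5 (36.8 to 43.9 TPM) and SLC11A2 (26.7 to 31.6 TPM). The exporter SLC40A1 (8.28 to 16.3 TPM) and STEAP3 (6.81 to 10.3 TPM) were lowest and overlapped. The 2 FTH1 entries, kept out of this order, were near FTL, at 2071 to 2381 TPM (FTH1_2) and 1567 to 1853 TPM (FTH1_1). TFRC changed its place in this order with the condition: under normoxia its 73.0 to 79.8 TPM lay below every NCOA4 value, and under hypoxia its 156 to 166 TPM lay above every NCOA4 value. Set against FTL within each library, the TFRC level in TPM was 6.66%, 6.70% and 6.70% in hypoxia replicates 1 to 3, against 3.09%, 2.79% and 2.98% in normoxia replicates 1 to 3. Most FTL reads were not uniquely mapped, as described below, which limits this ratio.

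TFRC, the transferrin receptor, lies on chromosome 33 of the CanFam3.1 build (29208609 to 29238242, 19 exons). In hypoxia replicates 1 to 3 it was at 267, 271 and 279 CPM, and in the normoxia replicates, in the same order of numbers as for every gene below, at 136, 126 and 128 CPM. Every hypoxia library was thus above every normoxia library, with little spread inside a condition. The log2 change was 1.07 ± 0.038 (edgeR, adjusted p = 2.22e-21), the largest of the 9 genes, with a 95% interval of 0.99 to 1.14.

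Neither downstream step of the same uptake route was called higher. STEAP3, the endosomal ferrireductase on chromosome 19 (30747921 to 30795338), was at 11.0, 15.8 and 14.1 CPM under hypoxia and at 13.6, 12.6 and 14.6 CPM under normoxia. Hypoxia replicates 1 and 2 were the lowest and the highest of the 6, so the conditions overlapped entirely. The log2 change of STEAP3 was 0.00 ± 0.11 (edgeR, adjusted p = 0.980), with a 95% interval of -0.22 to 0.23. SLC11A2 (DMT1), the proton-coupled iron carrier on chromosome 27 (3787855 to 3822672, 7 annotated transcripts), was at 66.5, 68.6 and 65.8 CPM under hypoxia and at 75.7, 74.3 and 71.7 CPM under normoxia. All hypoxia values of SLC11A2 were below all normoxia values, by a narrow margin. It fell by 0.14 ± 0.047 (edgeR, adjusted p = 0.0128), but not from exon reads alone (-0.10, edgeR, adjusted p = 0.184) or without normoxia replicate 1 (-0.12, edgeR, adjusted p = 0.0664). Some SLC11A2 transcripts are known to carry an iron-responsive element and others not, and the gene counts do not separate them.

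The ferritin entries changed by small amounts, FTL downward and the 2 heavy chain entries upward, and the calls for FTL and FTH1_1 depended on how reads were counted. FTL, the light chain, on chromosome 1 (107418458 to 107419923, 4 exons), was at 923, 939.7 and 958 CPM under hypoxia and at 994, 1015 and 967 CPM under normoxia. The highest hypoxia value was just below the lowest normoxia value. FTL fell by 0.078 ± 0.032 (edgeR, adjusted p = 0.0448), and this call ended when hypoxia replicate 1 or 2, or normoxia replicate 1 or 2, was left out (-0.08 to -0.06, edgeR, adjusted p = 0.0958 to 0.195). It also ended from uniquely mapped gene reads (-0.08 ± 0.037, edgeR, adjusted p = 0.0790).

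FTL reads were mostly not unique. Only 18.5% to 19.3% of its gene reads in a library mapped to a single place, against 94.7% or more for each of the other 8 genes in every library. Of its exon reads 45.1% to 46.4% crossed an exon junction, but of its uniquely mapped exon reads 25.4% to 29.7% did. Where else the other reads matched is not given in the files, so FTL counts may hold reads of near-identical copies.

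The 2 heavy chain entries had the same limit. FTH1_2, on chromosome 18 (54466023 to 54468732, 7 exons), was at 954, 931 and 922 CPM under hypoxia and at 809, 835 and 786 CPM under normoxia, with 35.5% to 37.0% of its reads unique. FTH1_1, on chromosome 11 (39037318 to 39038079, 2 exons), was at 779.9, 796 and 802 CPM under hypoxia and at 746, 715 and 732 CPM under normoxia, with 45.3% to 48.7% unique. Most of these unique FTH1_1 reads were intron reads. In hypoxia replicate 1, 9968 of 21997 gene reads of FTH1_1 were unique, but only 3208 of 15194 exon reads. For FTH1_2, 9173 of 26517 exon reads in that library were unique. In both entries each hypoxia library was above each normoxia library. The log2 change of FTH1_2 was 0.21 ± 0.033 (edgeR, adjusted p = 2.51e-06) and that of FTH1_1 was 0.12 ± 0.032 (edgeR, adjusted p = 0.00291). From uniquely mapped gene reads FTH1_1 did not pass (0.07, edgeR, adjusted p = 0.0923), nor from uniquely mapped exon reads (0.11, edgeR, adjusted p = 0.157). FTH1_1 also missed the threshold with library size as the only scaling (0.05, edgeR, adjusted p = 0.183). The entries differed in structure: 55.3% to 56.5% of FTH1_2 exon reads crossed an exon junction, against 1.16% to 1.57% of those of FTH1_1. The FTH1_1 model spans 762 bases, 711 of them exon, yet 29.7% to 33.6% of its gene reads counted as intron reads. Whether FTH1_1 makes a heavy chain was not tested.

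**Figure D2:**
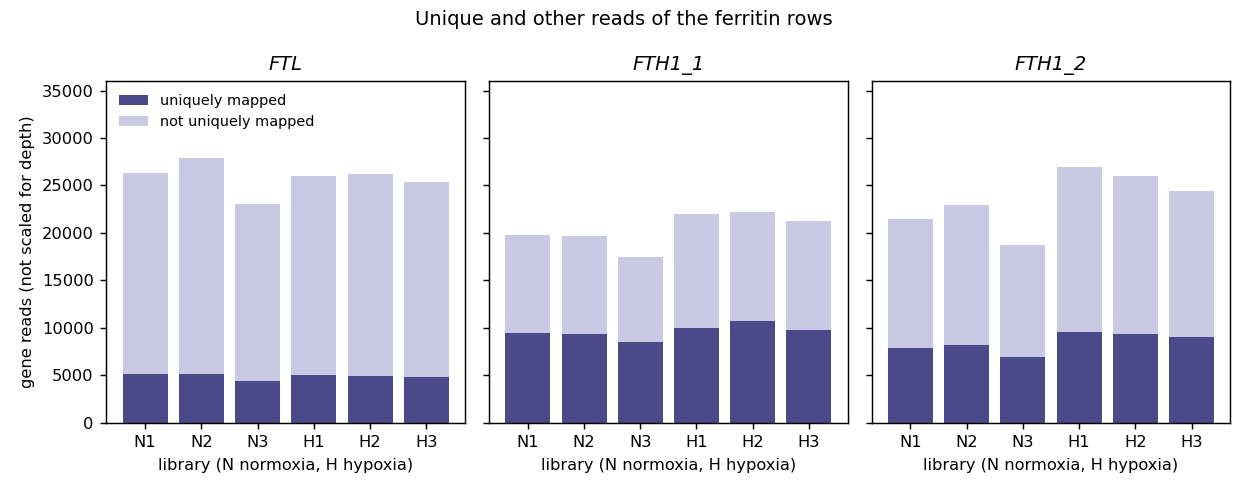
Gene reads, not scaled for depth, for FTL, FTH1_1 and FTH1_2 in each library (N normoxia, H hypoxia, replicates 1 to 3), split into uniquely mapped reads (dark) and other reads (light). Unique reads are under 20% of the FTL bars, 45.3% to 48.7% of the FTH1_1 bars and 35.5% to 37.0% of the FTH1_2 bars. The bars hold exon and intron reads together, and most unique FTH1_1 reads are intron reads.

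NCOA4, the receptor that delivers ferritin to the lysosome, lies on chromosome 28 (1802678 to 1825020, 10 exons). NCOA4 levels were 159, 157 and 165 CPM under hypoxia against 145, 136 and 139 CPM under normoxia. The conditions did not overlap, and NCOA4 rose by 0.19 ± 0.039 (edgeR, adjusted p = 9.97e-05).

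SLC40A1, which encodes ferroportin, the iron exporter of the cell surface, lies on chromosome 37 (303104 to 368865, 11 exons). It was at 35.9, 37.6 and 34.9 CPM under hypoxia and at 25.4, 23.4 and 23.3 CPM under normoxia, with a clear gap between the conditions. SLC40A1 rose by 0.59 ± 0.066 (edgeR, adjusted p = 5.84e-09). The gene for export thus rose together with the gene for uptake, by about 1.50-fold against 2.10-fold. Introns gave 50.3% to 59.3% of its reads.

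Of the 3 sensing genes, only ACO1 was called from all gene reads. ACO1 (IRP1), which is a cytosolic aconitase while it holds an iron-sulfur cluster and binds RNA without it, lies on chromosome 11 (49699109 to 49923257). It was at 214, 212 and 215 CPM under hypoxia and at 242, 239 and 227 CPM under normoxia, so every hypoxia library was below every normoxia library. ACO1 fell by 0.14 ± 0.036 (edgeR, adjusted p = 0.00109), and from exon reads alone by 0.10 (edgeR, adjusted p = 0.0459). IREB2 (IRP2), on chromosome 13 (38400591 to 38441015), was at 121, 127 and 129 CPM under hypoxia and at 131, 129.8 and 130.3 CPM under normoxia. Its groups did not overlap, but the gap between them was under 1 CPM, and IREB2 did not pass the test (-0.05 ± 0.040, edgeR, adjusted p = 0.304, 95% interval -0.13 to 0.03). With library size as the only scaling it passed (-0.12, edgeR, adjusted p = 0.0122).

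FBXL5, the iron-sensing subunit of the ubiquitin ligase that acts on IREB2, lies on chromosome 3 (64575348 to 64726931). Its gene reads were at 146, 143 and 147 CPM under hypoxia and at 136, 137 and 144 CPM under normoxia, which overlapped, and did not pass the test (0.06 ± 0.038, edgeR, adjusted p = 0.211, 95% interval -0.02 to 0.14). Introns held 65.6% to 71.4% of these reads. From exon reads alone FBXL5 was at 66.1, 61.5 and 65.0 CPM under hypoxia and at 56.1, 54.5 and 54.9 CPM under normoxia, without overlap, and rose by 0.22 ± 0.055 (edgeR, adjusted p = 0.00113). The library kit does not mark strand, and the FBXL5 model overlaps those of CD38, BST1 and FAM200B, just as the ACO1 model overlaps DDX58, TOPORS and SMIM27. Reads of those genes cannot be told apart from intron reads of FBXL5 and ACO1 where the models overlap.

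Exon reads come mostly from mature messengers and intron reads mostly from unspliced RNA, so the change of each was compared in a single model over both kinds of read. That model scaled exon and intron reads together. The separate exon and intron changes below come from fits with their own scaling, so they do not subtract exactly to its differences. Of the 9 iron genes 1, TFRC, was called with an exon change above its intron change, by 0.47 ± 0.091 on the log2 scale (edgeR interaction test, adjusted p = 4.01e-04, 95% interval 0.28 to 0.65). None was called in the other direction. Over all genes tested this way, 1.58% had a larger and 2.60% a smaller exon change. Without normoxia replicate 1 the counts became 2 larger and 1 smaller, with NCOA4 (0.37, edgeR, adjusted p = 0.0166) and FTL (-0.44, edgeR, adjusted p = 0.0422) added.

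TFRC exon reads were at 331, 342 and 349.9 CPM under hypoxia against 165, 152 and 157 CPM under normoxia. These values were scaled to the exon reads of each library with TMM factors. The exon reads rose by 1.11 ± 0.038. TFRC intron reads, scaled likewise to intron reads, were at 66.3, 56.4 and 65.9 CPM under hypoxia against 43.5, 39.9 and 40.8 CPM under normoxia. The intron reads rose by 0.60 ± 0.10 (edgeR, adjusted p = 2.19e-06). Both kinds of read were thus higher in every hypoxia library, the exon reads by more. These intron values rest on 244 to 447 reads a library.

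In SLC40A1 the exon change (0.67 ± 0.10) and the intron change (0.54 ± 0.089) were close. The difference in the single model was 0.09 ± 0.14 (edgeR, adjusted p = 0.872, 95% interval -0.20 to 0.37). For NCOA4, exon reads rose by 0.24 ± 0.040 while intron reads changed by -0.09 ± 0.094, each in its own fit. The NCOA4 difference in the single model was 0.28 ± 0.090 and missed the threshold (edgeR, adjusted p = 0.0579). It passed when exon and intron reads were scaled separately (0.33, edgeR, adjusted p = 0.0238), a setting added after the data were seen. For FBXL5 the difference in the single model was 0.17 ± 0.072 and was not called (edgeR, adjusted p = 0.200). Among the entries outside the counts, FTH1_2 went the other way, with exon reads up by 0.21 ± 0.030 and intron reads up by 0.65 ± 0.11. Its difference in the single model was -0.49 ± 0.083 (edgeR, adjusted p = 5.49e-05). Its intron reads were 0.98% to 1.55% of its gene reads.

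**Figure D3:**
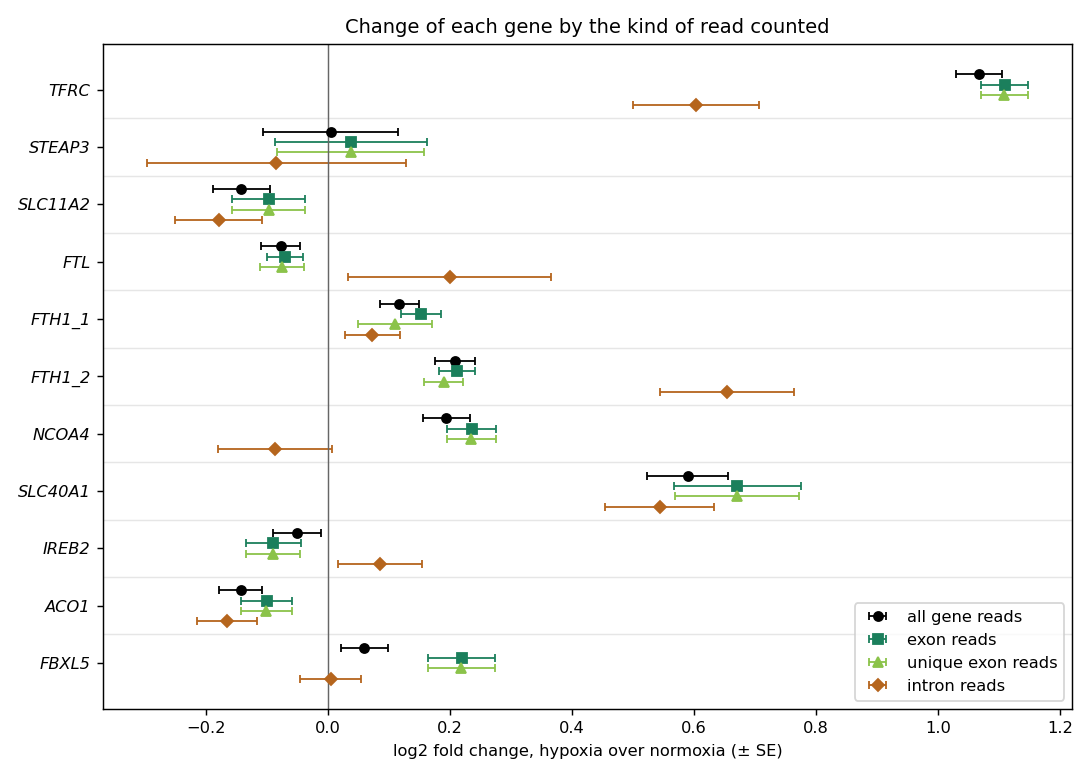
Log2 fold change of hypoxia over normoxia (horizontal axis, ± SE) for each gene from all gene reads, exon reads, uniquely mapped exon reads and intron reads. TFRC exon reads (1.11) lie far right of its intron reads (0.60), FTH1_2 shows the reverse order (0.21 and 0.65), and FBXL5 moves from 0.06 with all gene reads to 0.22 with exon reads.

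The wider iron and heme genes were taken from 5 lists. Of their 93 genes, 79 matched a symbol and 74 were tested, of which 16 rose and 31 fell (median log2 change -0.11). These counts read against 24.5% higher and 24.4% lower among all genes tested. In other iron uptake, reduction and transport, 5 of 12 tested genes rose and 4 fell (median 0.13). Transferrin, TF, the ligand of TFRC, rose by 1.02 ± 0.074, from 23.8, 23.6 and 18.6 CPM under normoxia to 45.9, 43.5 and 44.8 CPM under hypoxia, with no overlap. The siderophore-binding lipocalin LCN2 rose by 0.61 ± 0.19 at 2.25 to 4.34 CPM, and its receptor SLC22A17 by 0.66 ± 0.057, from 49.6 ± 1.63 to 78.1 ± 6.91 CPM. Among genes chosen after their values were seen, the metal transporter SLC39A14 fell by 0.31 and the duodenal ferrireductase CYBRD1 by 0.22. TFR2, the other transferrin receptor, was below the count filter.

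In iron export, the hepcidin axis and ferroxidases, 1 of 7 tested genes rose and 2 fell (median 0.06), and in exon reads 2 rose. The ferroxidase HEPHL1 fell by 0.81 ± 0.063, from 43.5 ± 1.18 to 24.7 ± 1.13 CPM, and introns gave 63.5% of its reads. BMP6, the growth factor that induces hepcidin in the liver, fell by 0.68 ± 0.15, from 6.26 ± 0.54 to 3.90 ± 0.14 CPM. The protease FURIN, which cleaves prohepcidin among many substrates, rose by 0.18 ± 0.045, and by 0.11 with library size as the only scaling. Hepcidin itself, HAMP, and the ferroxidase HEPH were below the count filter.

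In the list of iron chaperones, ferritin turnover and the sensor complex, 6 of 12 tested genes rose and 4 fell (median 0.12). The count that fell was 2 without normoxia replicate 2 and 3 with any other single library left out. Among the genes that fell was ALAS2, with 97.1% of its reads in introns. The chaperones PCBP1 and PCBP2 had no matching symbol, nor had FTMT, so they were not tested. EPAS1 (HIF-2α), whose messenger carries an iron-responsive element, rose by 0.73 ± 0.096. The autophagy receptor TAX1BP1, which takes part in the delivery of ferritin to lysosomes, rose by 0.58 ± 0.036, from 231 ± 6.35 to 345 ± 14.0 CPM, and its model overlaps that of JAZF1. The poly(rC)-binding protein PCBP3 rose by 0.72 ± 0.10 in gene reads, 88.7% of which lay in introns, and by 1.42 ± 0.31 in exon reads. PCBP3 had 1955 gene reads over the 6 libraries, so its exon change rests on few reads. Its model overlaps that of FTCD, which had up to 650 reads in a library. In the ligase that holds FBXL5, the adaptor SKP1 (-0.10) and the scaffold CUL1 (-0.12) fell slightly, and the RING subunit RBX1 (0.15) rose.

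Genes of heme synthesis, transport and breakdown fell more often than they rose: 11 of 20 fell and 3 rose (median -0.20). HMOX1, the heme oxygenase that frees iron from heme, fell by 1.22 ± 0.084, from 25.4, 26.0 and 23.8 CPM under normoxia to 10.5, 11.3 and 10.4 CPM under hypoxia, again without overlap. The synthesis enzyme ALAD fell too (-0.79 ± 0.080). ALAS1, which makes the first heme precursor, rose by 0.35, and 89.2% of its reads were unique and its model overlaps that of POC1A. BLVRA (-0.27), the reductase that acts after HMOX1, fell, and so did the reductase BLVRB (-0.29).

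In iron-sulfur cluster assembly, 10 of 23 tested genes fell and 1, CIAO1 (0.24), rose (median -0.15). The count that rose was 2 without hypoxia replicate 2, without normoxia replicate 3, with the replicate block and with unique gene reads. NFS1, LYRM4, ISCA1, NFU1, FDX2 and CISD1 had no matching symbol and were not tested. The mitochondrial chaperone HSPA9, which hands on new clusters, fell by 0.54 ± 0.033, from 598 ± 8.84 to 412 ± 10.7 CPM. CISD2, a cluster-binding membrane protein whose model overlaps that of SLC9B1, fell by 0.36 ± 0.055. The scaffold protein ISCU fell by 0.33. For the 15 genes that the naming rule took from these 5 lists, the largest adjusted p was that of LCN2 (0.00881, edgeR).

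**Figure D4:**
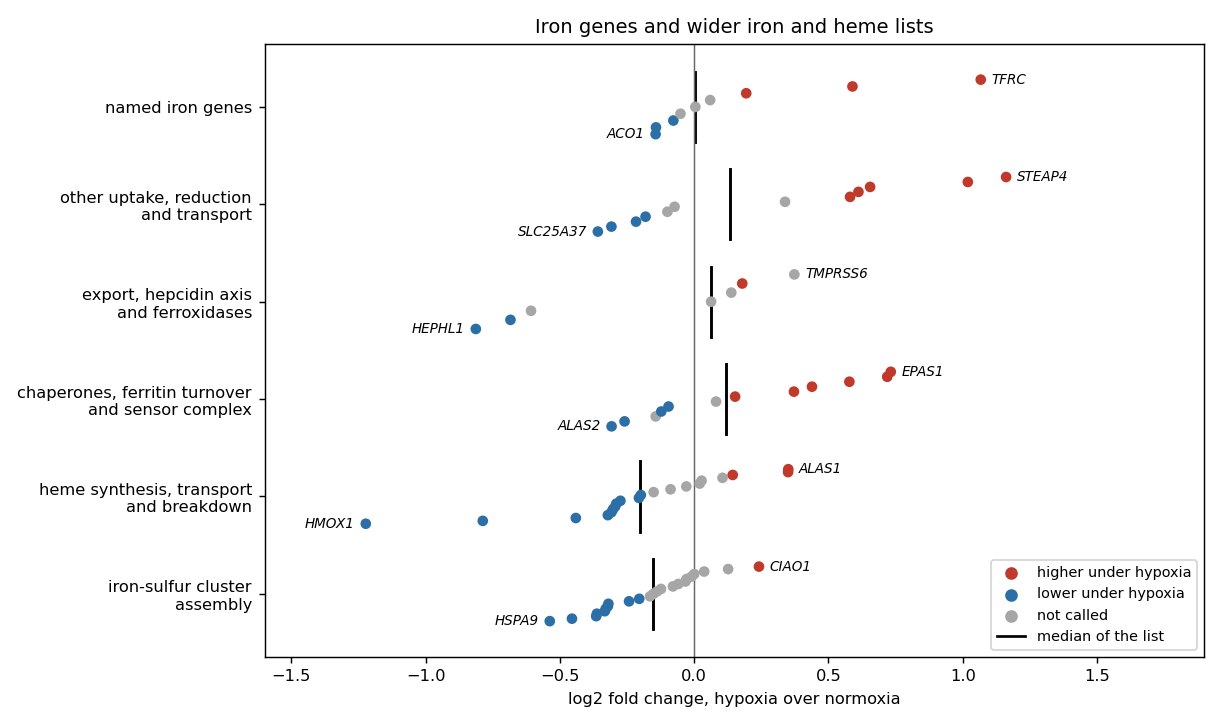
Log2 fold change of hypoxia over normoxia (horizontal axis) for each tested gene of the 9 named iron genes and of 5 wider lists, coloured by call, with each list's median as a black line and the lowest and highest gene of each list labelled. Heme genes (median -0.20) and iron-sulfur genes (median -0.15) lie mostly left of 0, and TFRC is furthest right among the named iron genes.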

How the data were processed

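RNA of CMM10 cells was sequenced in 3 hypoxia and 3 normoxia libraries, with poly(A) selection and a kit that does not mark strand, per the labels' protocols. Deposited counts are reads per gene of the CanFam3.1 build (a build given by the submitters' processing notes), split into exon and intron reads, total and unique, per the file headers. The aligner is not given in the sources used here, nor is the counting tool. Deposited TPM values were used for levels per length only, and the deposited RPKM values were not used. The reference gene table is of another assembly and was not used here.

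Total gene reads were filtered with filterByExpr, scaled by TMM and tested with edgeR 4.0.16 (R 4.3.3) by its quasi-likelihood test with robust estimation and Benjamini-Hochberg adjustment over all genes. Exon and intron reads were tested as 2 columns per library with library terms and a read-type by condition term. Both tests were also run on simulated data, with few changed genes and the same small spread for every gene. Those settings differ from these data, so the runs do not measure the error of the calls made here. DESeq2 1.42.0 was an alternative. Replicate pairs differed by more than sampling noise (chi-square per degree of freedom 4.29 to 13.7). The iron genes and lists were chosen with earlier results of these data known. The text names all 10 iron genes, CA9, and from each list the 3 called genes of at least 1 CPM with the largest change, and says where others were chosen later; a few genes that this rule takes are not reported here. In the list paragraphs, genes given without an SE were chosen after their values were seen.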

Additional observations from a re-analysis of the deposited data

How the results depend on the processing

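Across 13 alternatives (scaling by library size, DESeq2, no count filter, exon, unique gene or unique exon reads, a replicate block, and each library left out), TFRC (1.00 to 1.11), SLC40A1 (0.52 to 0.67), NCOA4 (0.13 to 0.24) and ACO1 (-0.21 to -0.10) kept direction and call. The 16 genes named by rule outside the iron genes did so too. FTL lost its call in 7 alternatives, SLC11A2 in 3, and the cause was not tested. FBXL5 was called higher only from exon reads and unique exon reads, and was at -0.01 with library size as the only scaling. With 3 iron genes called lower, unique exon reads left 1 and leaving out a library left 1 to 3. Exon change exceeded intron change in 1 gene, in 2 with separate scaling, and in 1 to 2 with a library left out, where 0 to 1 were called in the other direction. Between libraries of equal replicate number, deviations correlated at -0.09, -0.01 and -0.03, against -0.06 to 0.09 at unequal numbers. These values show no sign of pairing, but they cannot tell how the libraries were made. The replicate block gave 3 iron genes higher and 3 lower, and 3769 higher and 3793 lower of all genes against 3778 and 3761. STEAP3 had 310 to 441 reads a library, which limits its precision.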
